A study of Mus musculus with 24 samples.

Results

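Hippocampal RNA-seq was compared between aged mice carrying a kinase-dead MSK1 (MSK1 KD) and wild-type (WT) mice, with both housing conditions pooled. The comparison took 11 MSK1 KD libraries (5 standard-housed, KDSH, and 6 enriched, KDEE) against 10 WT libraries (4 standard-housed, WTSH, and 6 enriched, WTEE), which is 21 of the 24 libraries of the series. Membership came from the genotype and housing labels and from the study's own exclusion of 3 standard-housed libraries (WTSH 4 and 7, KDSH 6). Each library was made from the hippocampi of 1 experimentally naive male mouse aged 21–23 months, and the enriched mice had been in enrichment from 18 months. The KD allele is a knock-in that replaces aspartate 194 of MSK1 by alanine (D194A). It is present in every cell from conception, so the comparison is not limited to neurons or to adulthood. WT and KD mice were bred as separate lines on a C57BL/6J background that had been reached from C57BL/6N by backcrossing. Which mice shared a cage or a sequencing lane is not given in the sources used here, so the part of cage and lane in any difference was not tested.

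MSK1 (mitogen- and stress-activated kinase 1) is a nuclear kinase with an N-terminal and a C-terminal kinase domain. In neurons it is switched on by MAP kinases, including downstream of the BDNF receptor TrkB, and it phosphorylates the transcription factor CREB and histone H3. CREB is best known in the hippocampus for driving activity-induced genes such as Fos, Egr2 and Bdnf. The comparison asked whether loss of this kinase activity altered the resting transcriptome of the aged hippocampus, irrespective of housing.

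MSK1 is encoded by Rps6ka5 (ENSMUSG00000021180), on the minus strand of chromosome 12 at 100548439–100726983 of GRCm38. The edited codon lies in exon 5 of 18 of transcript Rps6ka5-201, at chr12:100615997-100616104. The whole of this 108-base exon is coding sequence, and it is shown because it holds the residue that separates the genotypes. It is the reference (WT) sequence, read 5′ to 3′ along the transcript, with the codon of aspartate 194 in capitals:
Rps6ka5 exon 5: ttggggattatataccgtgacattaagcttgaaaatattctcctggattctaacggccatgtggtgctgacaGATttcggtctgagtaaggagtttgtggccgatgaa
This aspartate is the first residue of the first Asp-Phe-Gly motif of the 863-residue protein, the motif that holds magnesium and ATP in protein kinases. The codon occupies positions 100616030 to 100616032. A count per gene cannot show which codon a transcript carried, so the genotype labels could not be checked from these values. The study inspected its aligned reads and reported the point mutation in the MSK1 KD samples. It placed the mismatch at base 100616031, the middle base of this codon.

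Rps6ka5 transcript was present at the same order of abundance in both genotypes. Its level was 23.3 ± 2.10 CPM (SD, n = 4) in WTSH, with the 4 mice between 21.1 and 25.2 CPM. CPM is the usual measure of a gene's counts relative to the size of its library, here after TMM scaling, and it is not corrected for gene length. In WTEE the lowest mouse was at 13.8, the median at 22.9 and the highest at 24.9 CPM (n = 6). The 5 KDSH mice were at 23.6, 23.7, 24.1, 24.3 and 24.8 CPM. The 6 KDEE mice lay between 23.0 and 24.4 CPM. WTEE mouse 10 stood below all others, and the remaining mice of both genotypes overlapped. The fitted log2 fold change (KD over WT, here and below) was 0.09 ± 0.07 (SE), with a 95% interval of -0.05 to 0.24 (adjusted p = 0.999). Without WTEE mouse 10 it was 0.04.

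**Figure D1:**
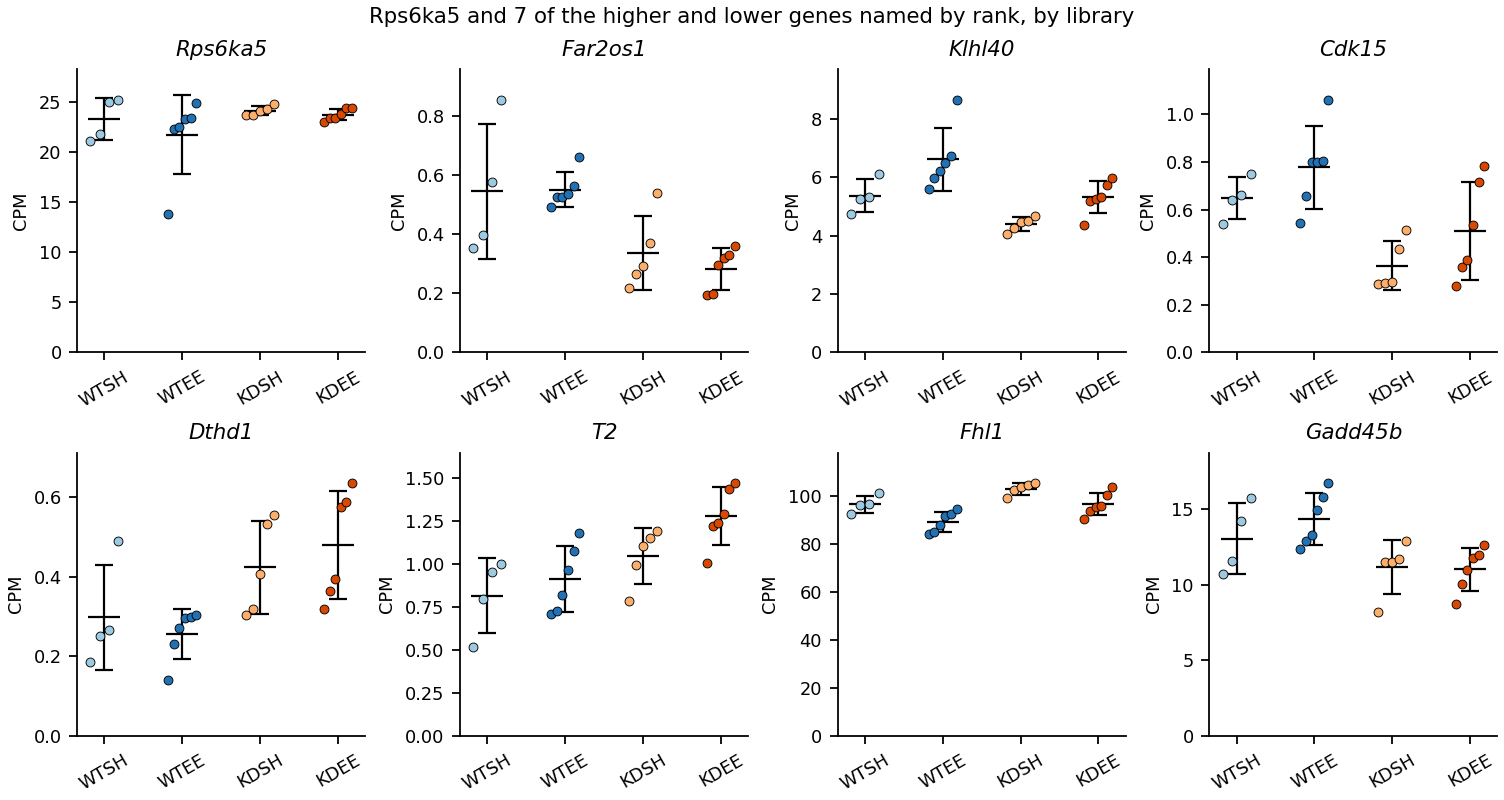
CPM (linear y axis, from 0) in each mouse for Rps6ka5 and 7 of the higher and lower genes named by rank of unadjusted p, by group on the x axis. Points are mice and bars are the mean ± SD of the 4 WTSH, 6 WTEE, 5 KDSH and 6 KDEE mice. Rps6ka5 is level apart from 1 WTEE mouse at 13.8 CPM, and in every other panel KD and WT mice overlap.

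No gene passed the thresholds for a genotype effect. Of 20187 genes tested, 0 (0%) had an adjusted p under 0.05 with an absolute log2 fold change over 0.38 in edgeR's quasi-likelihood test with Benjamini-Hochberg adjustment. The smallest adjusted p was 0.999. At an unadjusted p under 0.05 there were 470 genes (2.33%), 185 of them higher in KD (0.916%) and 285 lower (1.41%). If no gene differed, a share of about 0.05 of the genes would be expected at that level. DESeq2, the tool of the study, also called 0 genes, with a smallest adjusted p of 0.781 and 868 of 37776 genes at an unadjusted p under 0.05. In 0 genes (0%) did the CPM ranges of the genotypes separate.

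The size of the differences was small where depth was good. The median absolute log2 fold change over all genes was 0.06. Among 7968 genes with a mean of over 1000 counts, the 95% interval of the fold change lay within ±0.38 for 97.4%, with a median of 0.12 from the estimate to either bound. That share was 84.4% of the 5659 genes between 100 and 1000 counts, and 21.8% of the 5314 genes between 10 and 100 counts. For 1246 genes under 10 counts it was 0%, so in these rare transcripts the intervals left room for differences beyond 0.38. These intervals are per gene and unadjusted.

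Within enriched housing the outcome depended on the test. In edgeR's 4-group model KDEE against WTEE gave 0 calls (smallest adjusted p = 0.184). In that test 1007 of 20187 genes had an unadjusted p under 0.05, about the share expected if no gene differed. DESeq2 in a 4-group model of the same libraries, added after the data had been seen, gave 118 calls of 26970 genes (0.438%; smallest adjusted p = 0.00407; 1672 genes at an unadjusted p under 0.05), all 118 lower in KDEE. The study, which used DESeq2, also reported 118 genes for this comparison, all higher in enriched WT mice. On the enriched libraries alone DESeq2 gave 203 calls of 25247 (0.804%). The 118 were mostly rare transcripts, with a median of 12.05 counts per library and a median log2 fold change of -2.68. Their summed level ran from 23.2 to 34.7 CPM of raw library totals in the 6 KDEE mice and from 67.8 to 269.6 CPM in the 6 WTEE mice, which did not overlap, as the choice of these genes favours. It was 33.99 to 228.7 CPM in KDSH and 36.1 to 80.8 CPM in WTSH. WTEE mouse 10 held the highest value of 80 of the 118 genes and WTEE mouse 17 that of 23. The count was 1 without WTEE 10, 8 without WTEE 17, 47 without WTEE 21 and 187 without WTEE 16. It was 26, 27, 29, 36 and 55 without KDEE 20, 22, 14, 9 and 12. Gm10800, the most abundant of them and chosen after its values were seen, was at 0.0659 to 4.10 CPM in KDEE and at 9.44 to 147.5 CPM in WTEE, but at 110.6 CPM in KDSH mouse 1.

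In standard housing KDSH against WTSH gave 0 calls with edgeR (smallest adjusted p = 0.99995). In that test 202 of 20187 genes had an unadjusted p under 0.05. DESeq2 in a 4-group model also gave 0 calls, with 374 of 37779 genes at that level. The genotype-by-housing difference, tested directly, gave 0 calls with edgeR (smallest adjusted p = 0.419) and 20 of 26250 genes (0.0762%) with DESeq2 (smallest adjusted p = 0.0107).

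Library size differed between the genotypes among the kept libraries, in a test that took no account of housing. The libraries left out by the study were not in it. They held 15800187 (WTSH 4), 23318036 (WTSH 7) and 39585901 (KDSH 6) counts on genes, and both WTSH values were below every kept library. WT libraries held 42687669 to 71907130 counts on genes and KD libraries 27410239 to 50910416, a difference between the means of the groups with a permutation p of 0.00397, or 0.0476 adjusted over 12 measures. Summed gene models of structural RNA, among them Rn18s-rs5 (ribosomal RNA) and Rn7sk, ran from 355 to 25740 CPM in WT and from 354 to 8787 CPM in KD (permutation p = 0.0526, adjusted 0.315). All 7 tested members of that list were lower in KD, where 49.6% of all genes were below 0. Of the 7, 3 were at an unadjusted p under 0.05, beside 1.41% of all genes that were lower at that level. The median of the 7 was -1.41, and they include Lars2, a protein-coding gene. The summed level was highest in WTSH 2 (25740 CPM) and WTEE 10 (13974 CPM). It was 355, 497 and 1234 CPM in WTSH 5, 23 and 19. The KDSH mice lay between 493 and 5554 CPM, so the lower KD level in standard housing rests on 1 mouse, WTSH 2. In enriched housing the WTEE mice lay between 3865 and 13974 CPM and the KDEE mice between 354 and 8787 CPM. Whether the 7 members vary independently of each other was not tested. Markers of 10 cell types and neighbouring tissues had an adjusted p of 0.985 each between the pooled genotypes in the same permutation test. Choroid plexus markers, led by Ttr (transthyretin), spanned 39.4 to 6229 CPM in WT and 35.4 to 10123 CPM in KD, with 5 mice above 1000 CPM (WTSH 19, WTEE 10 and 13, KDEE 12 and 14). All 16 of these markers were below 0 in standard housing (median -3.01) and 0 of 16 were below 0 in enriched housing (median 0.34), so their pooled median of -0.87 stands for neither housing. The standard-housing value rests on 1 mouse, WTSH 19, at 4759 CPM for the summed markers. The other standard-housed mice of both genotypes were at 35.4 to 121.6 CPM. Hippocampal neuron markers ran from 1255 to 1542 CPM in WT and from 1261 to 1645 CPM in KD, so markers of the labelled tissue were present in every library. In bulk tissue, fewer cells of a type and less RNA per cell cannot be told apart.

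Many of the genes ranked first by unadjusted p were rare transcripts. By rank in each direction, 10 genes higher and 10 lower in KD were taken; 14 of the 20 are annotated as protein-coding, and 11 had a WT mean under 1 CPM. All 20 had the same sign in both housings, which ranking by the pooled p favours. None approached the adjusted threshold, each having an adjusted p of 0.999 in edgeR's test.

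Among the transcripts lower in KD, Far2os1, a noncoding transcript antisense to Far2 by its name (chromosome 6), had the smallest p. Its level ran from 0.351 CPM to a median of 0.530 and a highest value of 0.854 CPM in WT, and from 0.192 to a median of 0.294 and a highest value of 0.538 CPM in KD. Of the 11 KD mice 8 lay below the lowest WT mouse, and KDSH 8, KDSH 24 and KDEE 22 lay within the WT range. The log2 fold change was -0.85 ± 0.18 (SE), with an unadjusted p of 0.000106 and an adjusted p of 0.999 in edgeR's test. With all 24 libraries and DESeq2 it became the single gene called in the pooled comparison, at -0.95 (adjusted p = 0.0285), an analysis added after the data had been seen.

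Klhl40, a kelch protein known from skeletal muscle, had a median of 6.04 CPM in WT (4.75 to 8.67) and 4.66 CPM in KD (4.07 to 5.97), a log2 fold change of -0.30 ± 0.07. All KDSH mice were below all WTSH mice, while KDEE and WTEE overlapped. In GENCODE M21 the exons of Klhl40 overlap those of an opposite-strand gene, Gm47108. Counting ignored strand, so reads over the shared part would go to neither gene if the annotation used for counting held both. Whether it did was not tested. Cdk15, a cyclin-dependent kinase family member, was between 0.537 and 1.06 CPM in WT and between 0.277 and 0.783 CPM in KD (log2 fold change -0.71 ± 0.17). Gadd45b, an activity-induced gene linked to active DNA demethylation in neurons, had a median of 13.8 CPM in WT (10.7 to 16.8) and 11.5 CPM in KD (8.18 to 12.9), a log2 fold change of -0.32 ± 0.09. KDSH 18, KDEE 9 and KDEE 12 lay below all WT mice, and the other KD mice overlapped the lower WT values. Gadd45b and Klhl40 were the most abundant of the 10 lower genes.

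The other lower genes were near or under 1 CPM. Mtfr2, a mitochondrial fission regulator, was at -0.67 ± 0.18, Plb1, a phospholipase, at -0.34 ± 0.10, and Serpinf2, the plasma inhibitor of plasmin, at -0.54 ± 0.16. Gm5860 (-0.84 ± 0.22), Gm26814 (-1.17 ± 0.33) and the small nucleolar RNA model Gm23130 (-0.45 ± 0.13) are noncoding. Gm26814 is also among the 118 genes that DESeq2 called in enriched housing. In GENCODE M21, Gm23130 shares exon sequence with Rps12, Gm5860 with Gm11264 and Plb1 with Gm36840. HTSeq sets reads that fall on several genes aside in a row of their own. Reads over exons shared in the annotation used for counting thus entered no gene's count. Whether that annotation held the overlaps given here was not tested.

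Among the genes higher in KD, Dthd1, which encodes a death-domain protein, had the smallest p. It ran from 0.140 to 0.489 CPM in WT (median 0.268) and from 0.304 to 0.636 CPM in KD (median 0.407), a log2 fold change of 0.73 ± 0.20. WTSH 19 was the WT mouse furthest into the KD range. Fhl1, a LIM-domain protein best known in muscle, was the most abundant gene of the 20. Its median was 92.5 CPM in WT (84.3 to 101) and 100.2 CPM in KD (90.5 to 105), a log2 fold change of only 0.10 ± 0.03. The groups overlapped over most of their range. T2 had a median of 0.883 CPM in WT (0.517 to 1.18) and 1.19 CPM in KD (0.782 to 1.47), a log2 fold change of 0.43 ± 0.12. Its exons overlap those of Gm16702 and another gene.

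Smyd1, a histone methyltransferase of striated muscle, was at 0.35 ± 0.11 and Myo18b, an unconventional myosin, of muscle, at 0.27 ± 0.08, with highest single values of 1.79 and 4.16 CPM. Cdhr1, a photoreceptor cadherin, had a median of 7.53 CPM in WT and 9.13 CPM in KD (0.28 ± 0.09). Oas2, an interferon-induced oligoadenylate synthetase, was between 0.761 and 1.35 CPM in WT and between 0.704 and 2.78 CPM in KD (0.50 ± 0.16), with KDSH 8 the highest. The unnamed transcripts Gm35911 (0.62 ± 0.19) and Gm45472 (0.56 ± 0.19), the latter overlapping Lpcat2 on the opposite strand, had KD means of 0.328 and 0.282 CPM. Dio3, the last of the 10, is described with its chromosome below.

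The kinases and substrates of the pathway were level. All 6 RSK and MSK kinase genes had 95% intervals within ±0.38, and none had an unadjusted p under 0.05. Rps6ka4, which encodes the closest relative of MSK1, MSK2, was at 44.4 CPM in WT and 44.6 CPM in KD, a log2 fold change of 0.01 ± 0.04. Rps6ka2, encoding a ribosomal S6 kinase, was at 0.10 ± 0.06. All 15 genes of the MAP kinase route were within ±0.38, among them Mapk14 (p38α, 0.01 ± 0.03) and the BDNF receptor gene Ntrk2 (0.08 ± 0.07). All 12 substrates and coactivators were within ±0.38 too, with Creb1 at -0.002 ± 0.042 and Crtc1, a CREB coactivator, at 0.05 ± 0.08. Of 15 glutamate receptor and scaling genes, 14 were within ±0.38 and 0 reached an unadjusted p under 0.05. Gria1, an AMPA receptor subunit, was at 0.02 ± 0.07 and Grin2a, an NMDA receptor subunit, at -0.13 ± 0.07.

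**Figure D2:**
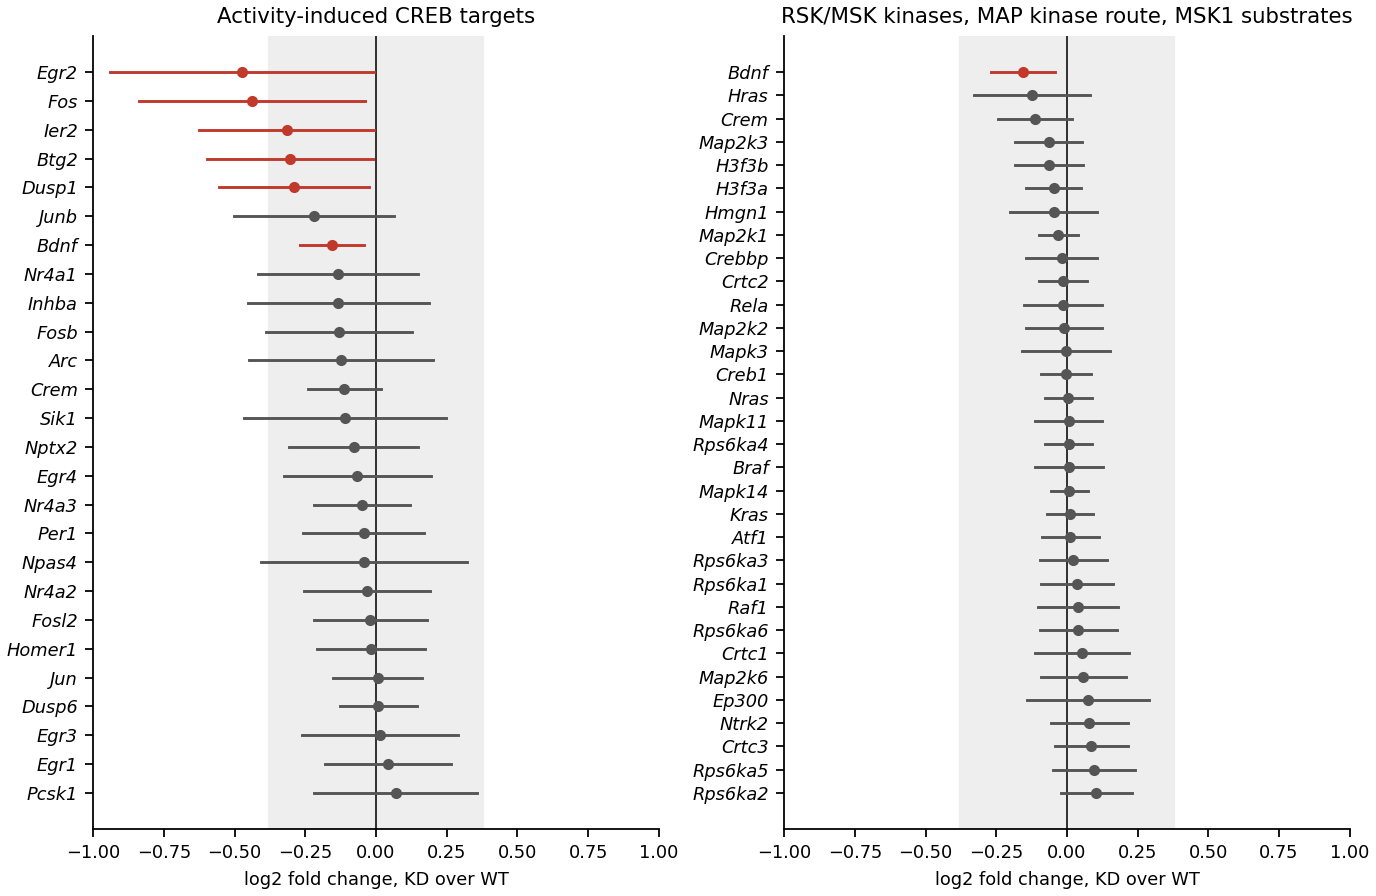
Log2 fold change (KD over WT, x axis) with its 95% interval for the 26 activity-induced CREB targets on the left and for the kinases, MAP kinase route and substrates on the right. The grey band marks ±0.38 and red marks an unadjusted p under 0.05. On the left 21 of 26 points lie below 0 and 6 are red. On the right Bdnf, which both panels hold, is the only red gene and every interval drawn stays in the band.

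Activity-induced CREB targets leaned lower in KD, though none was called. Of 26 tested, 0 passed the thresholds, 21 were below 0 (49.6% of all genes were), and 6 had an unadjusted p under 0.05, all lower in KD, beside 1.41% of all genes tested. The median log2 fold change was -0.09, against 0.0007 over all genes. In standard housing 18 of 26 were below 0 (median -0.04) and in enriched housing 22 (median -0.14). These genes respond together within a mouse, so their count is not that of independent genes. The list was chosen with earlier results of these data known.

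Bdnf, the growth factor upstream of TrkB and itself a CREB target, had the smallest p of the list. Its level was 36.7 ± 4.14 CPM (SD, n = 10) in WT, from 32.3 to 47.4 with a median of 36.0, and 32.9 ± 2.11 CPM (n = 11) in KD, from 29.9 to 36.3 with a median of 32.7. The ranges overlapped, and WTEE 17 was the highest mouse. The log2 fold change was -0.15 ± 0.05 (SE; unadjusted p = 0.00917, adjusted p = 0.999 in edgeR's test), with -0.14 in standard and -0.16 in enriched housing. An opposite-strand gene, Gm45346, overlaps its exons.

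Fos, the immediate-early transcription factor, had a median of 33.5 CPM in WT (11.9 to 48.1) and 26.4 CPM in KD (14.1 to 34.8), a log2 fold change of -0.44 ± 0.19. Egr2, another immediate-early factor, was between 2.005 and 8.77 CPM in WT and between 1.57 and 6.34 CPM in KD (-0.47 ± 0.22). Btg2, an antiproliferative early-response gene, had a median of 32.7 CPM in WT and 26.4 CPM in KD (-0.30 ± 0.14). WTSH mouse 5 was the lowest of all 21 mice in 4 of these 6 genes (Fos, Btg2, Dusp1 and Ier2), while WTSH mouse 2 was the highest in 3. WTSH mouse 5 thus lay under all KD mice for those 4 genes. Dusp1, a phosphatase that inactivates MAP kinases, had a median of 34.5 CPM in WT and 28.8 CPM in KD (-0.29 ± 0.13), and Ier2 had medians of 10.3 and 8.51 CPM (-0.32 ± 0.15). Dusp1 shares exon sequence with Ergic1 on the opposite strand.

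Other well-known members had intervals that spanned 0. Arc, a regulator of AMPA receptor trafficking, was at -0.12 ± 0.16, Npas4 at -0.04 ± 0.18, Egr1 at 0.04 ± 0.11 and Jun at 0.01 ± 0.08. All 26 intervals lay within ±1, and 14 lay within ±0.38. The count of 6 was not stable. It was 1 without KDSH 18, KDEE 9, WTSH 23 or WTEE 16, 2 without KDSH 8, KDEE 12 or WTSH 2, and 3 without KDEE 20 or WTEE 13. It was 1 without the 5 mice rich in choroid plexus markers and 1 with the share of structural RNA as a covariate, while the number below 0 stayed between 16 and 25 under every alternative.

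**Figure D3:**
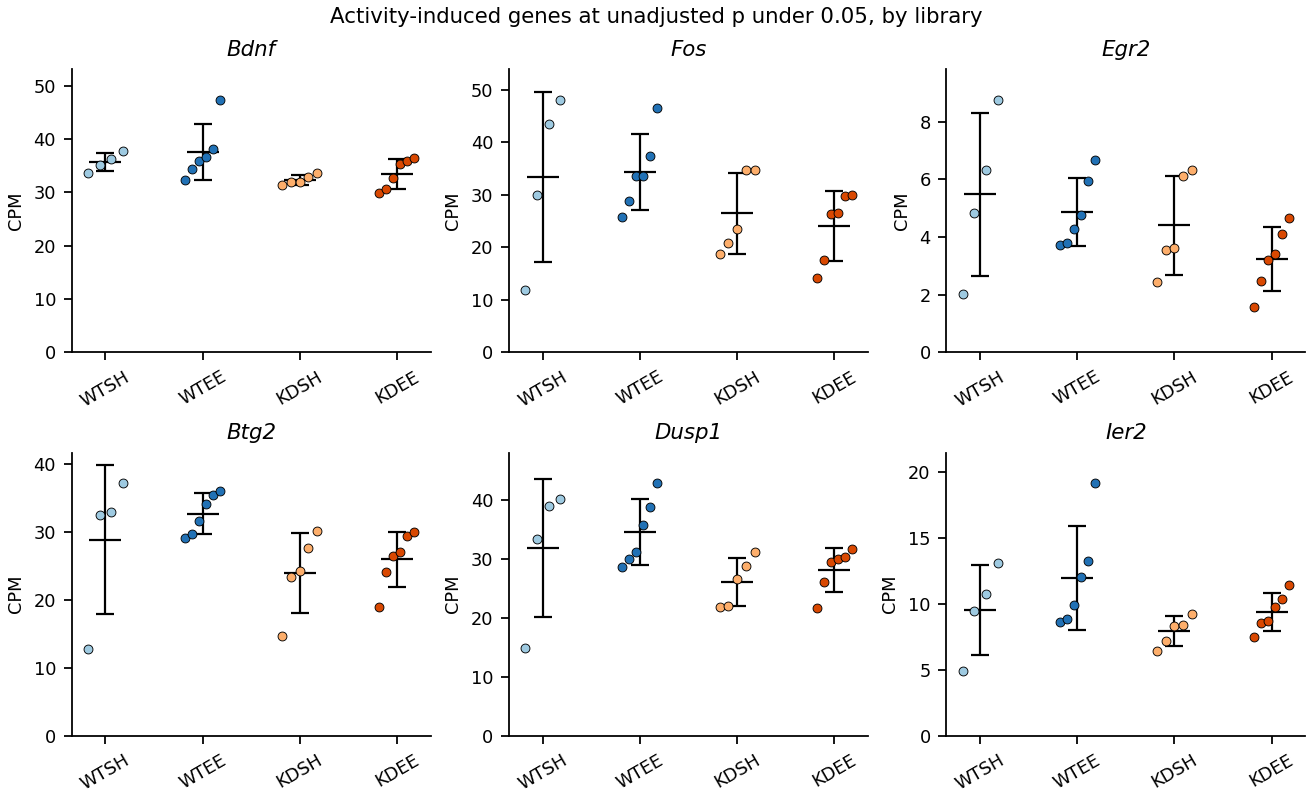
CPM (linear y axis, from 0) in each mouse for the 6 activity-induced genes at an unadjusted p under 0.05, by group on the x axis. Points are mice and bars are the mean ± SD of each group. KD means sit below WT means within both housings, and WTSH mouse 5 is the low point of its group in the Fos, Egr2, Btg2, Dusp1 and Ier2 panels.

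A CREB-binding element occurs in the promoters of some of these genes. RefSeq promoter windows (GRCm38.p6, 250 bases before to 50 after the start) were searched for the full palindrome TGACGTCA, which reads the same on both strands. It was in 3 of the 19 list members that matched (15.8%) and in 2.03% of 27025 genes. The 3 were Btg2, Dusp1 and Pcsk1. They are shown in 60-base stretches upstream of the start, 5′ to 3′ along the gene with the palindrome in capitals, because a shared element can be set beside their values:
Btg2: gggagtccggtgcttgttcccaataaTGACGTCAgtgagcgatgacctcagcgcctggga
Dusp1: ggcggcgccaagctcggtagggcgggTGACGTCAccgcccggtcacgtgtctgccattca
Pcsk1: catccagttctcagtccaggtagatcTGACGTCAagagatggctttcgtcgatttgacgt
They lie at chr1:134079288-134079347 (minus strand), chr17:26508582-26508641 (minus strand) and chr13:75089753-75089812 (plus strand), with the palindrome starting 166, 143 and 78 bases before the start of transcription. Btg2 and Dusp1 were at -0.30 and -0.29, whereas Pcsk1, a prohormone-processing protease, was at 0.07 ± 0.14. The core element TGACG, or CGTCA on the other strand and including the full palindrome, was in 15 of the 19 members (78.9%) and in 23.0% of all genes. Of the 10 higher and 10 lower genes named by rank, 13 matched, 0 held the palindrome and 1 held the core element. A gene counted as a match if any of its windows held the letters. The 19 list members had 31 windows, and all 27025 genes had 32851. The list was also chosen as CREB targets, which favours a higher share than in all genes. A match in the letters does not show that CREB binds there.

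Genes beside Rps6ka5 could differ because they travelled with the edited locus, so the neighbourhood was described by distance. Within 2 Mb, 35 genes were tested and 1 had an unadjusted p under 0.05 (2.86%). Within 5 Mb the count was 1 of 75 (1.33%), within 10 Mb 4 of 130 (3.08%) and within 20 Mb 6 of 314 (1.91%). The rest of chromosome 12 had 5 of 330 (1.52%) and the other chromosomes 428 of 18814 (2.27%). Over all genes the share was 2.33%, and 0 genes were called in any window. Without WTSH mouse 5 the count within 10 Mb was 8 of 130 (6.15%), beside 3.15% of all genes. The median absolute log2 fold change was 0.04 within 2 Mb and 0.06 on the other chromosomes.

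None of the nearest neighbours reported here had an unadjusted p under 0.05. On one side, Ttc7b was at 169.6 CPM in WT and 171.0 CPM in KD (0.01 ± 0.03) and Gm10433, a rare transcript, at 0.07 ± 0.23 (95% interval -0.42 to 0.55). On the other side, Ccdc88c was at 0.11 ± 0.13 and the noncoding D130020L05Rik at -0.14 ± 0.14 (95% interval -0.42 to 0.14). WTEE mouse 10, which was low for Rps6ka5, was also the lowest for Ccdc88c at 15.4 CPM, where the other WT mice lay at 37.7 CPM or above. Its low values were not limited to this locus. For Cyfip2 on chromosome 11 it was again the lowest of all mice, at 479.7 CPM. In the limma fit with quality weights its library had the lowest weight, 0.0794. The cause of these low values was not tested. The single gene within 5 Mb at an unadjusted p under 0.05 was Gm28373, a noncoding model that shares exon sequence with Itpk1. It was between 0.0725 and 0.481 CPM in WT and between 0.0595 and 0.220 CPM in KD (-0.83 ± 0.31; unadjusted p = 0.0151).

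**Figure D4:**
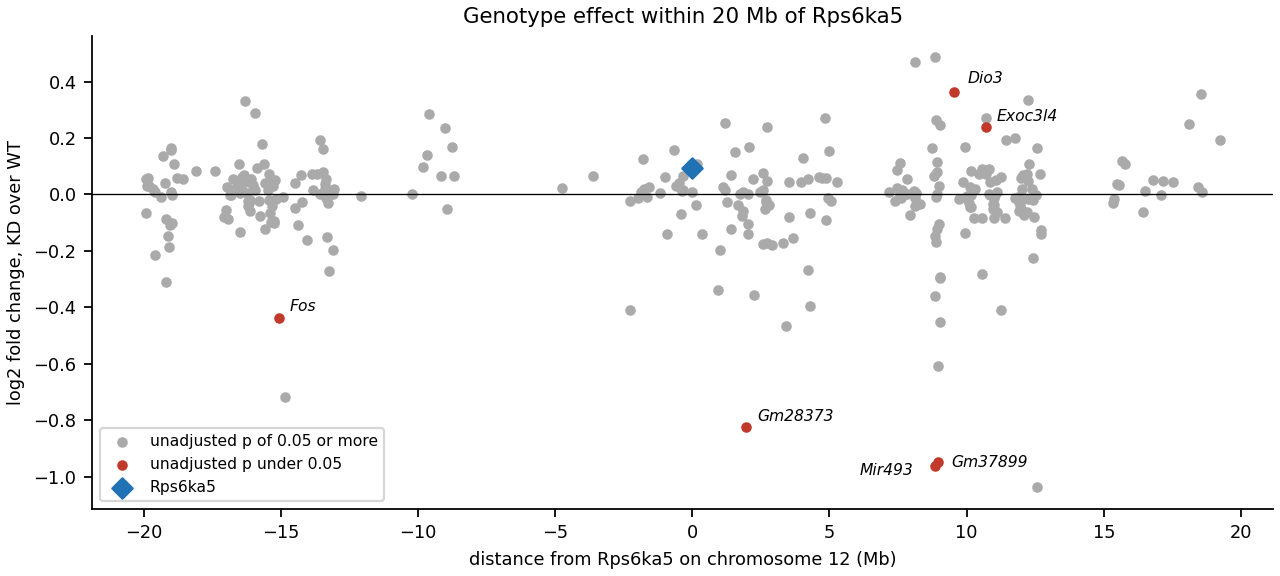
Log2 fold change (KD over WT, y axis) of each tested gene within 20 Mb of Rps6ka5, against its distance from the gene on chromosome 12 in Mb (x axis). Red points have an unadjusted p under 0.05 and are named, and the blue diamond is Rps6ka5. Near the locus the points centre on 0, and 3 of the 6 red points lie close together at about 9 Mb.

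The other 3 of the 4 genes within 10 Mb lay in the imprinted Dlk1-Dio3 domain, about 9 Mb from Rps6ka5, which was examined because their values had been seen. Dio3, the deiodinase that inactivates thyroid hormone, had a median of 6.35 CPM in WT (3.74 to 8.30) and 7.91 CPM in KD (5.95 to 11.2), a log2 fold change of 0.36 ± 0.12 (unadjusted p = 0.00553). The ranges overlapped, and KDSH 1, 3 and 8 were the 3 highest mice. They were also among the 4 mice that stood apart for Bhlhe22, a member of the hippocampal neuron marker list. Their summed hippocampal neuron markers were at 1564, 1645 and 1446 CPM (KD median 1372). Their oligodendrocyte markers were at 5879, 6408 and 5447 CPM (KD median 7060). The part of Bhlhe22 and of these marker levels in the result was not tested. Mir493 was at -0.96 ± 0.34 and Gm37899 at -0.95 ± 0.44, both at or under about 1 CPM in mean. For Gm37899 the values were 0.55 in standard and -1.91 in enriched housing, and the difference between them had an unadjusted p of 0.00292 (adjusted p = 0.522). Gm37899 is among the 118 genes called by DESeq2 in enriched housing (adjusted p = 0.0195). WTEE mouse 10 had the highest Gm37899 level, 3.09 CPM. The other members had no unadjusted p under 0.05 in the pooled comparison. Meg3, a maternally expressed long noncoding RNA, was at 0.06 ± 0.12, Rian at -0.01 ± 0.05, Mirg at -0.10 ± 0.09, Dlk1, a ligand that acts on Notch, at 0.16 ± 0.13, and Rtl1 at -0.15 ± 0.08. Rtl1 was at 0.08 in standard and -0.32 in enriched housing, and the difference between them had an unadjusted p of 0.00962 (adjusted p = 0.871 in edgeR's test). Mirg was at 0.09 and -0.25, a difference with an unadjusted p of 0.0695.

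Because the lines had C57BL/6N ancestry, genes known to differ between the C57BL/6J and C57BL/6N substrains were examined. Of 8 listed, 6 were tested, 0 were called and 1 (Crb1) had an unadjusted p under 0.05. Wdfy1, an endosomal adaptor, fell into separate high and low levels. It was at 15.4 and 15.6 CPM in WTSH mice 5 and 2 and at 31.3 and 31.5 CPM in WTSH mice 23 and 19. All 6 WTEE mice lay between 13.3 and 16.97 CPM. KDSH mice 3, 18 and 24 were at 15.9, 15.9 and 18.7 CPM, against 27.4 and 30.1 CPM in mice 1 and 8. In KDEE, mice 20 and 22 were at 29.2 and 29.0 CPM and the other 4 between 14.9 and 16.03 CPM. High Wdfy1 was thus seen in 2 of 10 WT and 4 of 11 KD mice, and the fitted genotype effect was 0.17 ± 0.17.

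Gabra2, a GABA-A receptor subunit, also varied widely within both genotypes. It had a median of 81.9 CPM in WT (60.1 to 145) and 129.9 CPM in KD (63.7 to 190), a log2 fold change of 0.28 ± 0.18 (unadjusted p = 0.150). It was 0.0006 in standard and 0.48 in enriched housing, a difference with an unadjusted p of 0.203. KDEE mouse 20 was the highest for Gabra2 and was among the high mice for Wdfy1, while KDEE mouse 22, also high for Wdfy1, was at 74.5 CPM. Crb1, the gene of a retinal polarity protein, was between 1.22 and 2.17 CPM in WT and between 0.944 and 2.44 CPM in KD (0.31 ± 0.14; unadjusted p = 0.0356). Nnt (0.02 ± 0.05), Ide (-0.01 ± 0.03) and Cyfip2 (0.06 ± 0.09) were level. A count per gene cannot show a difference in coding sequence. Level counts thus do not show that the mice carried the same substrain allele.

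**Figure D5:**
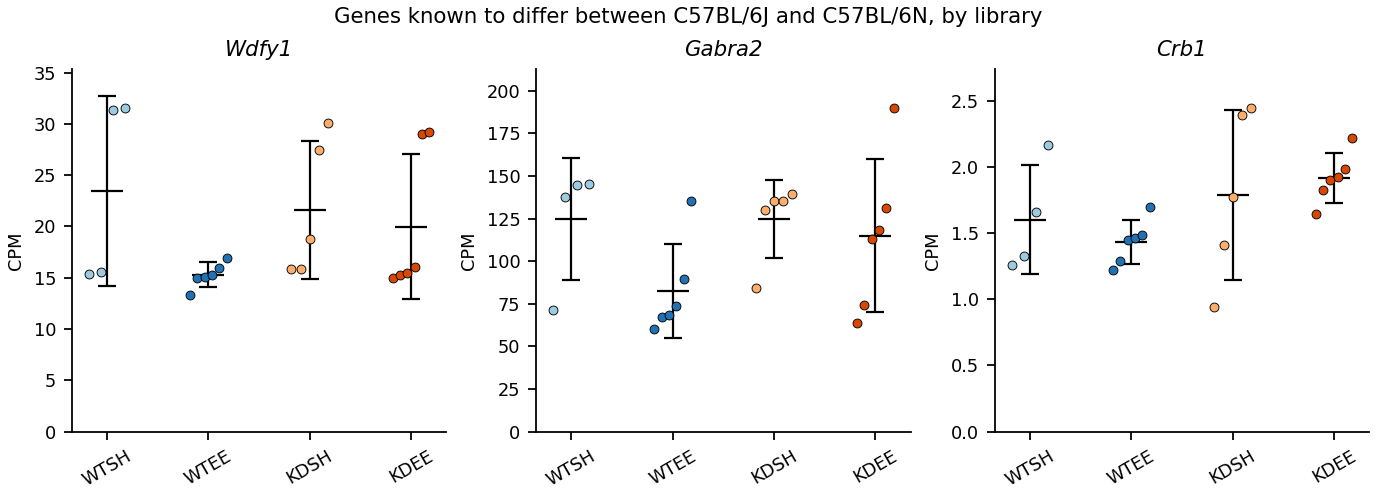
CPM (linear y axis, from 0) in each mouse for Wdfy1, Gabra2 and Crb1, by group on the x axis, with the mean ± SD of each group. Wdfy1 shows a gap between 18.7 and 27.4 CPM with mice of both genotypes on each side, and Gabra2 spreads from 60.1 to 190 CPM.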

How the data were processed

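Hippocampal poly(A) RNA of 24 mice was sequenced, and the deposited files hold the authors' raw counts of read pairs per gene, made with STAR 2.5 on GRCm38 and HTSeq without regard to strand. Rows that name no gene (reads outside genes or shared by several) took 13.1% to 21.3% of each kept library and 25.8% to 50.2% of the 3 libraries that the study left out for ribosomal RNA or low correlation; they entered no total or test. Counts were fitted with edgeR 4.0.16 (R 4.3.3; TMM, default expression filter, quasi-likelihood test) in an additive model of housing and genotype, and a model of 4 groups gave the within-housing effects and their difference. A call needed a log2 fold change beyond ±0.38 and a Benjamini-Hochberg adjusted p under 0.05, the thresholds of the study. DESeq2 1.42.0 (also within housings, added after the data were seen) and limma 3.58.1 served as alternatives, together with other scalings, filters, covariates and leaving out each library. The code was tested on simulated data. Library totals and marker sums were compared with two-sided permutation tests (100000 resamples). No 2 libraries of a group agreed within sampling noise (chi-square per degree of freedom at least 6.03 over 60 pairs). P-values measure the spread between single mice. Symbols were matched to GENCODE M21 (95.1%).

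The text names Rps6ka5, the 10 genes higher and 10 lower in KD with the smallest unadjusted p, the 3 tested genes nearest to Rps6ka5 on each side, tested genes within 5 Mb at an unadjusted p under 0.05, and members of the lists reported; a few genes that these rules would name are not reported here. The members and gene lists were chosen with earlier results of these data known.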

Additional observations from a re-analysis of the deposited data

Results flagged for a closer look

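Among 31 genes given with full values, 124 groups of 4 to 6 mice were examined for a single mouse far from the rest (Dixon's test at 95%), and 9 stood out, where chance flags about 1 group in 20. Rps6ka5 in WTEE mouse 10 was at 13.8 CPM, with the nearest mouse at 22.3. Gabra2 was at 71.5 CPM in WTSH mouse 2 (nearest 137.7) and at 84.5 CPM in KDSH mouse 24 (nearest 129.9). Klhl40 in WTEE mouse 17 was at 8.67 CPM (nearest 6.73). Serpinf2 in KDSH mouse 3 was at 1.21 CPM (nearest 0.741). Gm35911 was at 0.502 CPM in KDSH mouse 1 and at 0.574 CPM in KDEE mouse 22, the nearest mice being at 0.304 and 0.318. Oas2 in KDEE mouse 15 was at 0.704 CPM (nearest 1.25). Gm5860 in WTEE mouse 10 was at 0.421 CPM (nearest 0.252). None of these genes was called with or without the mouse concerned in edgeR's test.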

How the results depend on the processing

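No paired analysis was possible because each number in the labels belongs to 1 mouse and no 2 groups share one. The count of called genes stayed at 0 under 33 of 34 alternatives, and DESeq2 on all 24 libraries gave 1 (Far2os1, -0.95). Within each housing, and for the difference between housings, the count was 0 under each of the 27 edgeR alternatives. DESeq2 gave 118 in enriched housing in a 4-group fit (with single libraries left out 1, 109, 114, 187, 8 and 47 without WTEE 10, 11, 13, 16, 17 and 21, and 36, 55, 29, 102, 26 and 27 without KDEE 9, 12, 14, 15, 20 and 22), 203 with the enriched libraries alone, 20 for the difference, and 0 in standard housing in both fits; these fits were added after the data were seen. Rps6ka5 stayed between 0.04 and 0.12 and was never called. Genes at an unadjusted p under 0.05 numbered 868 with DESeq2, 1585 without a filter on low counts, 294 with at least 10 counts in every library, 872 with all 24 libraries, 1890 with DESeq2 on all 24, 281 with the share of structural RNA as a covariate, 714 with limma voom and quality weights, and 341 to 777 when single libraries were left out (777 without WTSH 19). Within 10 Mb of Rps6ka5 the count of 4 of 130 became 15 of 266 without the filter (5.64%, beside 4.19% of all genes), 1 of 99 with the strict filter (1.01%, 1.77%), 10 of 127 with all 24 libraries (7.87%, 4.40%), 25 of 268 with DESeq2 on all 24 (9.33%, 4.95%), 7 of 127 without the 5 libraries rich in choroid plexus markers (5.51%, 3.04%), and 3 to 8 with single libraries left out (8 of 130 without WTSH 5). The unfiltered and DESeq2 fits test more genes; for the rest the cause was not tested. The 6 activity-induced targets became 3 with all 24 libraries, 2 with DESeq2 on all 24, 1 with the structural RNA covariate, 1 without the choroid-rich libraries, and 1 to 7 with single libraries left out. Of 1617 values for 48 single genes, 1594 kept direction and call and 22 changed sign. With other settings these were Ttc7b (-0.0015, first principal component as a covariate), Meg3 (-0.0101, structural RNA covariate), D130020L05Rik (0.0209) and Cyfip2 (-0.0273) without the choroid-rich libraries, and Cyfip2 (-0.0025) with limma. With single libraries left out, Ttc7b ranged from -0.00606 to 0.0221, Rian from -0.0267 to 0.0118, Nnt from -0.0149 to 0.0330, Ide from -0.0248 to 0.00198, Gm10433 from -0.0540 to 0.145, Egr1 from -0.0156 to 0.112 and Cyfip2 from -0.00871 to 0.0882.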

Other observations

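Sharp splits between mice that ignored genotype were looked for after the values had been seen. Each of the 13627 genes averaging 100 counts or more was scanned for its widest gap on the log2 scale with at least 3 mice on each side, relative to the spread on both sides. Of the 25 widest, 22 separated the 5 mice rich in choroid plexus markers from the rest. The other 3 were Agpat4, Wdfy1 and Bhlhe22. Agpat4, a lysophospholipid acyltransferase gene, was at 35.2 to 39.3 CPM in 5 mice (WTSH 2 and 23, WTEE 13, KDSH 24 and KDEE 14) and at 59.7 to 83.8 CPM in the other 16, of which 7 were WT and 9 KD. Bhlhe22, a transcription factor gene of the developing nervous system, is also on the hippocampal neuron marker list. It was at 99.8 to 110 CPM in 4 standard-housed mice (WTSH 5 and KDSH 1, 3 and 8) and at 71.9 to 81.2 CPM in the rest. Among the 3 libraries that the study left out, KDSH mouse 6 was at 27.7 CPM for Wdfy1, beside 16.53 and 15.03 CPM in WTSH mice 4 and 7.

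Those 3 libraries were at 18.4 CPM (KDSH 6), 21.0 CPM (WTSH 4) and 21.4 CPM (WTSH 7) for Rps6ka5. For Far2os1 they were at 0.235, 1.06 and 0.569 CPM. In the fit with quality weights WTEE mouse 10 had the lowest weight of the 21 libraries, 0.0794, where the other weights ran from 0.658 to 1.76.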
